A study of Homo sapiens with 6 samples.

Results

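The Notch genes described here are the ligands JAG1, JAG2 and DLL1, the receptors NOTCH1, NOTCH2 and NOTCH3, the glycosyltransferase LFNG, and the target genes HES1, HES4 and HEY1. They were taken by gene name from a table of 57773 genes, where the 10 names hold 11 rows because JAG1 is listed under 2 identifiers. RNA was sequenced from 6 cultures of HepG2, a cell line established from a human liver tumor, at a passage below 20. In 3 cultures the cells received recombinant human TGFβ1 at 5 ng/mL for 3 h, and in the other 3 they received the vehicle of the ligand for the same 3 h, in both groups in medium without serum. The labels name no transgene or knockdown in either group, so TGFβ against vehicle is the only comparison. The reads assigned to genes numbered 60815385 in the shallowest culture and 100099136 in the deepest.

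Notch signaling passes between touching cells. A ligand of the Jagged or Delta family on one cell binds a NOTCH receptor on its neighbor, proteases release the intracellular part of the receptor, and this part joins the DNA-binding protein RBPJ and a Mastermind co-activator in the nucleus to switch on genes of the HES and HEY families of repressors. In the liver the pathway is best known for the formation of bile ducts, and loss of JAG1 or NOTCH2 function causes Alagille syndrome. Fringe enzymes such as LFNG add a sugar to the receptor and shift its preference from Jagged to Delta ligands. JAG1 and HEY1 are known as genes that TGFβ can induce in some epithelial cells.

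Before the Notch genes, the labels of the cells and of the treatment were checked. All 8 hepatocyte genes of a marker list were expressed, with a summed level between 33914 and 37666 reads scaled to the library (CPM) with vehicle and between 32531 and 36404 CPM with TGFβ. SMAD7 and SKIL, feedback inhibitors of the TGFβ pathway, had log2 fold changes of 1.72 (SE 0.11) and 2.45 (SE 0.11) with TGFβ. NOTCH1, DLL4 and HEY1 are also abundant in endothelial cells, and NOTCH3 in mural and stellate cells, so the markers of these cells were followed. Of 5 endothelial markers, 4 have a row in the table, KDR was at 0 in every culture, and the summed level was between 0.205 and 0.272 CPM with vehicle and between 0.217 and 0.236 CPM with TGFβ. The summed level of 7 markers of stellate cells or fibroblasts was between 52.5 and 57.3 CPM with vehicle and between 62.7 and 71.3 CPM with TGFβ. None of its 3 tested genes passed an FDR of 0.05, but PDGFRB (log2 fold change 1.22, SE 0.31, FDR 0.0582) and COL1A1 (log2 fold change 0.57, SE 0.20, FDR 0.193) had every TGFβ culture above every vehicle culture. With the culture number as a block both were called as higher, at FDRs of 7.25e-06 and 0.00806. COL1A1 had between 5.35 and 9.88 CPM with vehicle and between 10.5 and 12.3 CPM with TGFβ, and ACTA2, the third tested, had overlapping groups. The other matrix genes of the list, COL1A2, COL3A1, DCN and LUM, were at most at 0.144 CPM in any culture. The part of this list in the results on NOTCH3 was not tested. The 4 bile duct markers summed to between 416 and 477 CPM with vehicle and between 349 and 407 CPM with TGFβ, and 1 of 3 tested, SOX9, was called as lower. KRT7 of the same list had a log2 fold change of 1.36 (SE 0.34, FDR 0.0615, and 0.0230 with the block), with the TGFβ cultures above the vehicle ones. Its level was low, between 0.145 and 0.292 CPM with vehicle and between 0.412 and 0.621 CPM with TGFβ. KRT19, with a mean of 198 CPM with vehicle, had overlapping groups (log2 fold change 0.06, SE 0.10, FDR 0.875, and 0.615 with the block). The 4 leukocyte markers summed to between 35.0 and 38.4 CPM with vehicle and between 36.3 and 40.7 CPM with TGFβ, with CD3E at 0 throughout. In RNA from whole cultures, fewer cells of a type and less RNA per cell cannot be told apart.

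Per length, JAG1 was the most abundant of the 10 genes and DLL1 the least. Levels between genes are given as the deposited RPKM, reads per kilobase of the gene model and library size, as mean ± SD of the 3 vehicle cultures. JAG1 had 18.0 ± 2.91 RPKM, HES4 had 5.68 ± 0.481 RPKM and HES1 had 5.51 ± 0.613 RPKM. NOTCH2 followed with 2.31 ± 0.0772 RPKM, LFNG with 0.579 ± 0.151 RPKM and HEY1 with 0.514 ± 0.147 RPKM. The other receptors were lower, with 0.123 RPKM for NOTCH1, between 0.114 and 0.134 RPKM in single cultures, and 0.0554 ± 0.00357 RPKM for NOTCH3. JAG2 had 0.0152 ± 0.00802 RPKM and DLL1 had 0.00709 ± 0.00655 RPKM. The ranges of the vehicle cultures overlapped between the neighbors HES4 and HES1, LFNG and HEY1, and JAG2 and DLL1, and were apart between all other neighbors in this order. The order of the 10 means was the same in the TGFβ cultures, where LFNG with 2.20 RPKM came close to NOTCH2 with 2.24 RPKM.

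The test of TGFβ against vehicle was edgeR's quasi-likelihood F test, adjusted by Benjamini-Hochberg over the 22747 genes with enough reads, and a gene was called at an FDR under 0.05. Of the 10 Notch genes, 9 were tested and DLL1 had too few reads. LFNG, NOTCH3, HEY1, NOTCH1 and HES4 rose (5 of 9), and none of the other 4 was called. Across all tested genes 4.12% were called, 3.11% as higher and 1.01% as lower. In 6 of the 9 tested genes, the 5 called and HES1, every TGFβ culture lay above every vehicle culture in CPM, which was the case for 10.4% of all tested genes. For each of these 6 genes the exact two-sided permutation P was 0.1, the smallest that 3 cultures against 3 allow. This permutation takes the cultures as unpaired. Culture numbers in the 2 groups were found to pair the cultures, and with the number as a block 11.8% of all tested genes were called. With the block the 5 genes were also called, and JAG1 was called as lower.

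**Figure D1:**
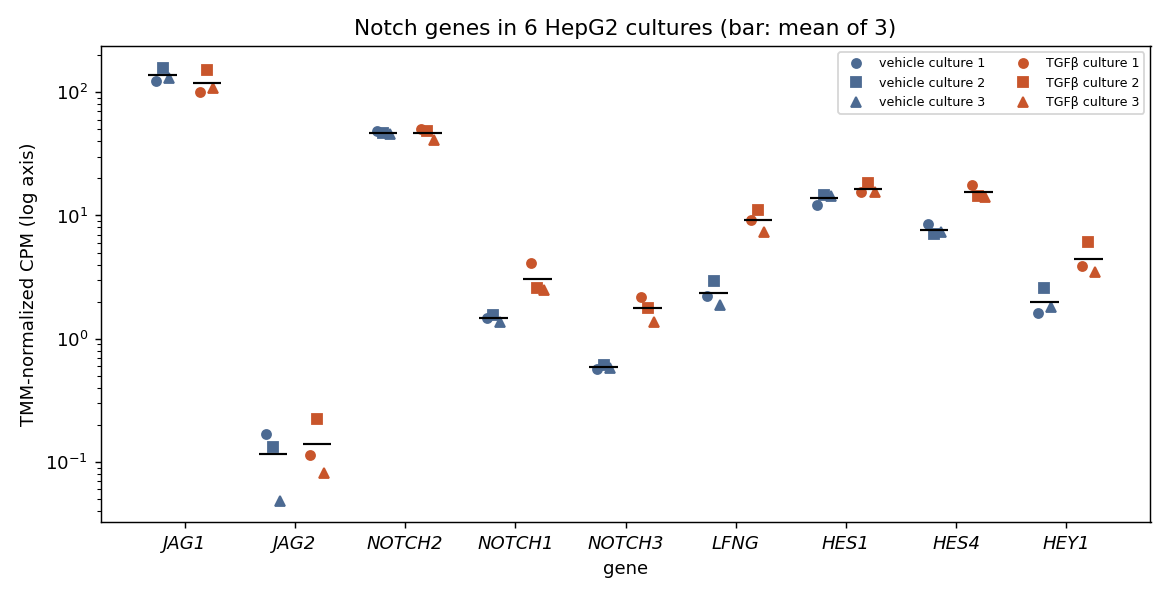
TMM-normalized CPM of the 9 tested Notch genes in each of 6 cultures on a log axis, with symbols for the culture number, blue for vehicle, orange for TGFβ and a bar at the mean of 3 cultures. The orange points of NOTCH1, NOTCH3, LFNG, HES1, HES4 and HEY1 all sit above the blue ones, whereas those of JAG1, JAG2 and NOTCH2 overlap them.

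Of the ligands JAG1, JAG2 and DLL1, none was called as higher, and JAG1 was somewhat lower with TGFβ within each culture number. JAG1 (ENSG00000101384, minus strand of chromosome 20 from 10618332 to 10654694 in hg19) encodes the main Jagged ligand of liver. It had 123, 158 and 130 CPM in vehicle cultures 1, 2 and 3, and 99.7, 151 and 108 CPM in TGFβ cultures 1, 2 and 3. Culture 2 was the highest of both groups, and the groups overlapped. The log2 fold change was -0.20 (SE 0.15, FDR 0.695), which is within the spread between cultures. With the culture number as a block it was -0.21 (SE 0.06) and passed the threshold (FDR 0.0300). The log2 ratio of TGFβ to vehicle was -0.30 for number 1, -0.07 for number 2 and -0.27 for number 3. Without the block, single cultures left out moved the log2 fold change to between -0.41 and -0.09, and JAG1 was called in none of these fits. The second JAG1 row (ENSG00000270408) spans 1168 bases from 10625847 to 10627014 inside the gene, of which 817 lie in annotated exons of JAG1. It had between 4.87 and 9.35 CPM, with a log2 fold change of -0.36 (SE 0.20, FDR 0.503, and 0.0309 with the block), and can rest on reads of the same RNA. RP11-103J8.1, another row that overlaps JAG1, had between 1.08 and 1.63 CPM (log2 fold change 0.00, SE 0.21, FDR 0.999).

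JAG2 and DLL1 were at the limit of detection. JAG2 (ENSG00000184916, chromosome 14 from 105607318 to 105635161), the other Jagged ligand, was covered by 15, 11 and 3 reads with vehicle and by 11, 18 and 6 with TGFβ. The groups overlapped, and the log2 fold change was 0.20 (SE 0.52, FDR 0.925). Leaving out vehicle replicate 3 turned it to -0.11, and leaving out TGFβ replicate 2 to -0.30, so no direction can be given. Scaled to library size, its 35 TGFβ reads against 29 vehicle reads gave a ratio of 1.12 (exact 95% interval 0.666 to 1.90, for counting error alone). RP11-44N21.4, a row that overlaps JAG2 in the table, had more reads than JAG2 in every culture (log2 fold change 0.14, SE 0.31, FDR 0.913). DLL1 (ENSG00000198719, chromosome 6 from 170591294 to 170599561), a Delta ligand, was covered by 0, 4 and 2 reads with vehicle and by 2, 6 and 2 with TGFβ. Its ratio was 1.55 (exact 95% interval 0.510 to 5.19), so a difference was not detectable at this depth.

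The receptors split, with NOTCH1 and NOTCH3 higher and NOTCH2 level. NOTCH3 (ENSG00000074181, chromosome 19 from 15270444 to 15311792) had 0.566, 0.615 and 0.585 CPM with vehicle and 2.18, 1.79 and 1.36 CPM with TGFβ. The lowest TGFβ culture was more than double the highest vehicle culture. NOTCH3 rose 3.02-fold, a log2 fold change of 1.59 (SE 0.23, FDR 0.00368). Its call held whichever culture was left out, and the log2 fold change then ranged from 1.41 to 1.74.

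NOTCH1 (ENSG00000148400, chromosome 9 from 139388896 to 139440314) had 1.47, 1.56 and 1.38 CPM with vehicle and 4.10, 2.58 and 2.47 CPM with TGFβ. TGFβ culture 1 stood above the other TGFβ cultures, and all of them were above the vehicle cultures. NOTCH1 rose 2.08-fold, a log2 fold change of 1.05 (SE 0.22, FDR 0.0275). Its call did not survive the loss of vehicle replicate 1, 2 or 3, with FDRs of 0.0840, 0.0927 and 0.131, or of TGFβ replicate 1 (log2 fold change 0.77, FDR 0.0724). These fits had no block. With the culture number as a block and all cultures kept, the FDR of NOTCH1 was 0.00242. MIR4673 and RP11-413M3.4, which overlap NOTCH1 in the table, had at most 1 read in any culture.

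NOTCH2 (ENSG00000134250, chromosome 1 from 120454176 to 120612240), the receptor most tied to bile duct formation, had 48.5, 46.6 and 45.8 CPM with vehicle and 50.3, 48.6 and 41.2 CPM with TGFβ. The groups overlapped and the log2 fold change was -0.01 (SE 0.09, FDR 0.984). NOTCH2NL, a partial copy of NOTCH2 on the same chromosome whose reads can be hard to tell from those of NOTCH2, also had overlapping groups (log2 fold change -0.03, SE 0.15, FDR 0.965).

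**Figure D2:**
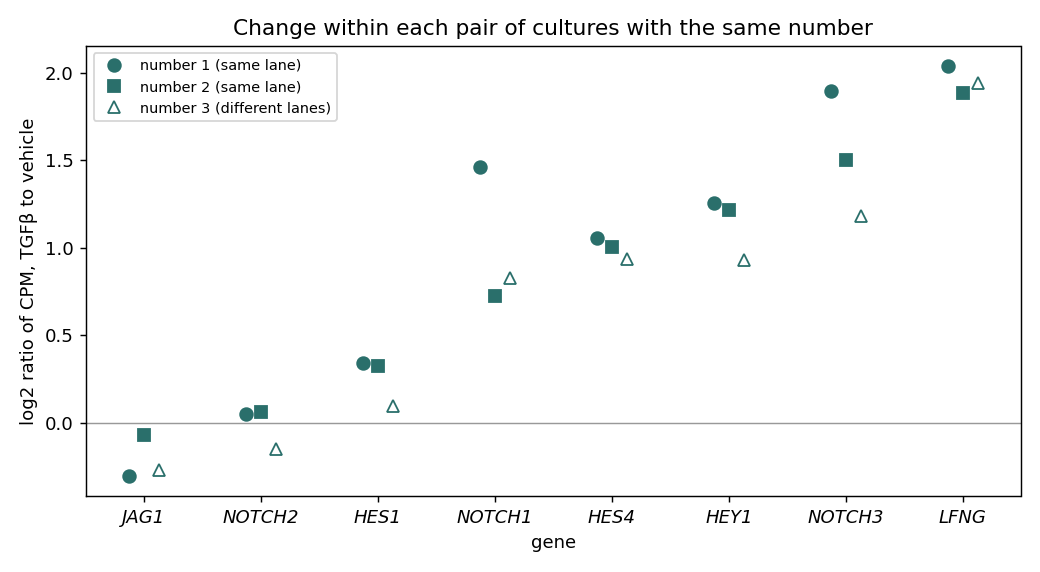
Log2 ratio of TGFβ to vehicle CPM within each pair of cultures with the same number, for 8 Notch genes, with filled symbols for numbers 1 and 2, whose partners were run on one lane, and open triangles for number 3, whose partners were on different lanes. NOTCH1, HES4, HEY1, NOTCH3 and LFNG lie above 0.7 in every pair, NOTCH1 with the widest spread, from 0.72 to 1.46.

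Sequencing lane is the only batch that the labels give. Cultures 1 of both groups shared lane 1 and cultures 2 shared lane 3, while vehicle culture 3 was on lane 4 and TGFβ culture 3 on lane 5. Within lane 1 the log2 ratio was 2.04 for LFNG, 1.90 for NOTCH3, 1.46 for NOTCH1, 1.26 for HEY1 and 1.06 for HES4. Within lane 3 it was 1.88 for LFNG, 0.72 for NOTCH1, 1.22 for HEY1 and 1.00 for HES4, and NOTCH3 lay between its values for numbers 1 and 3 (1.90 and 1.18). The 5 genes were thus higher within both shared lanes. Fitted on cultures 1 and 2 only, LFNG, NOTCH3 and HES4 were called, and NOTCH1 (FDR 0.0998) and HEY1 (FDR 0.118) were not.

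The make-up of the receptor RNA changed with these rises, a comparison chosen after the values were seen. Of the summed RPKM of NOTCH1, NOTCH2, NOTCH3 and NOTCH4, NOTCH2 held 90.4%, 89.6% and 88.7% in the vehicle cultures and 79.7%, 83.7% and 83.1% in the TGFβ cultures. The share of NOTCH1 went from 4.77% ± 0.285 (SD, n = 3) to 9.03% ± 1.80 (SD, n = 3). The share of NOTCH3 went from 2.15% ± 0.124 (SD, n = 3) to 5.90% ± 0.681 (SD, n = 3). For each of these 3 genes the groups did not overlap (exact two-sided permutation P = 0.1, the smallest possible). These shares restate the rises of NOTCH1 and NOTCH3 beside a level NOTCH2 and are no separate evidence. NOTCH4 held between 2.62% and 4.56%, with overlapping groups.

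LFNG (ENSG00000106003, plus strand of chromosome 7 from 2552163 to 2568811), the lunatic fringe enzyme, showed the largest log2 fold change and the smallest FDR of the 10 genes. It had 2.21, 2.97 and 1.88 CPM with vehicle and 9.13, 11.0 and 7.30 CPM with TGFβ. Each TGFβ culture was more than double the highest vehicle culture. LFNG rose 3.87-fold, a log2 fold change of 1.95 (SE 0.21, FDR 0.000649), and the call held whichever culture was left out (log2 fold change 1.79 to 2.15). MIR4648, inside LFNG, had at most 2 reads in any culture.

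The other fringe enzymes did not show this difference. RFNG had a log2 fold change of 0.06 (SE 0.11, FDR 0.895) and MFNG of -0.02 (SE 0.40, FDR 0.990). RFNG was the most abundant fringe RNA in every culture. The share of LFNG in the summed RPKM of the 3 fringe genes was 3.95%, 6.49% and 3.93% in the vehicle cultures and 14.0%, 19.0% and 13.9% in the TGFβ cultures. These groups did not overlap (exact two-sided permutation P = 0.1). The share was not planned before the values were seen. It restates the rise of LFNG beside a level RFNG and is no separate evidence.

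**Figure D3:**
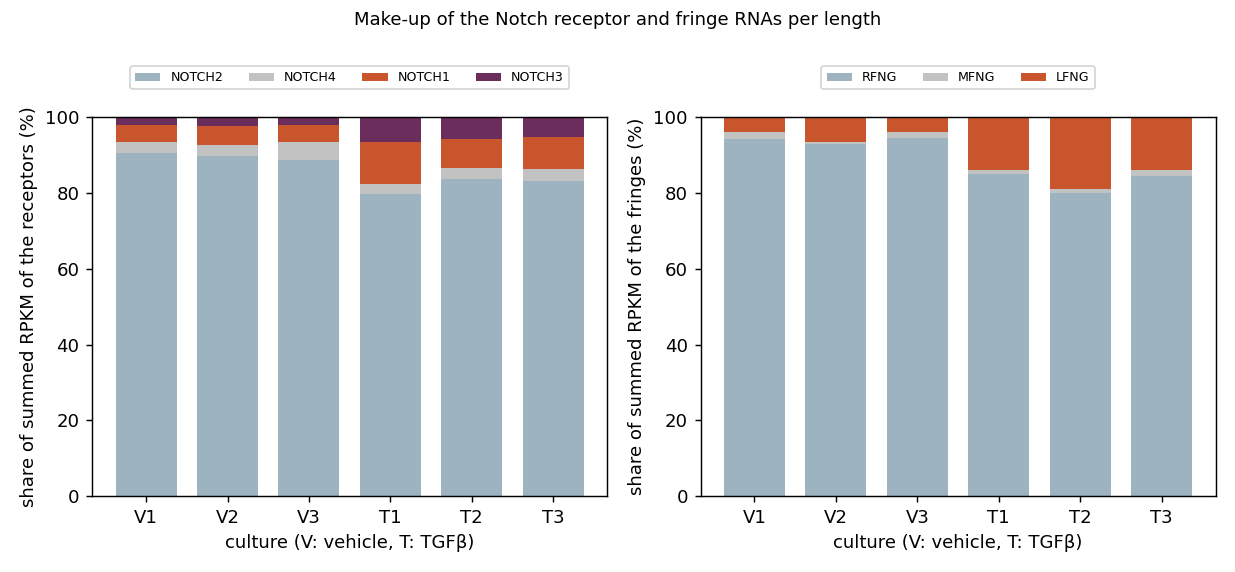
Stacked bars of the share of each gene in the summed RPKM of the 4 NOTCH receptors (left) and of the 3 fringe genes (right), in percent, for vehicle cultures V1 to V3 and TGFβ cultures T1 to T3. NOTCH2 and RFNG hold most of every bar, and the orange NOTCH1 and LFNG and the purple NOTCH3 segments are taller in all 3 TGFβ cultures.

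HES1 and HES4, 2 repressors of the same family, share a feature of their promoters, shown here because both are direct Notch targets that differed in their response. Sequences upstream of the RefSeq start site were taken for 8 of the 10 genes (9 starts, 2 of them at LFNG, from assembly GRCh38.p14). The promoters of HEY1 and DLL1 were not searched, so nothing is said about sites in them. The 2 stretches shown run from 200 to 48 bases before the start on the coding strand, and were placed in GRCh37 by an exact match, HES1 at chr3:193853737-193853889 on the plus strand and HES4 at chr1:935525-935677 on the minus strand. Capitals mark the letters GTGGGAA, the core that RBPJ binds, then the related string TTCACAC, and in HES1 also the letters CAGAC, the core of a SMAD site. The gene model used for the counts begins HES4 at 935552, upstream of the RefSeq start used here. By that model GTGGGAA of HES4 spans the gene start and TTCACAC lies inside the gene.
HES1: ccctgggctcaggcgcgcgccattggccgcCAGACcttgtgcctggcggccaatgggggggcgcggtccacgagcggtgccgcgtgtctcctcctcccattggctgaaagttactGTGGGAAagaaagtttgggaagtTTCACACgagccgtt
HES4: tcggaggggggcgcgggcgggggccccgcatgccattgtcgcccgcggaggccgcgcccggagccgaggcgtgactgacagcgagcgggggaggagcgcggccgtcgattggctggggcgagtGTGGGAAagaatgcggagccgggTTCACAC

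GTGGGAA was searched on both strands in the 250 bases before the start. It was found once in HES1, 85 to 79 bases before the start, once in HES4, 77 to 71 bases before the start, and not in the windows of LFNG, NOTCH1, NOTCH2, NOTCH3, JAG1 or JAG2. Of 35116 promoters of the same length, 5.43% hold these letters. In both genes TTCACAC, which reads GTGTGAA on the other strand, begins 23 bases after the first base of the RBPJ core. This second string, on either strand, is held by 2.48% of the promoters, and both strings together by 0.188%. The pair at this spacing and in these orientations was found in 2 of the 35116 promoters, those of HES1 and HES4. This pair was looked for after both sequences had been read, so the count describes the promoters and tests nothing. The SMAD letters CAGAC, on either strand, were found once in HES1 and once at the upstream start of LFNG, and in 38.0% of all promoters. The HES letters CACNAG were found 3 times in HES1, once at the downstream start of LFNG and once in NOTCH3, and in 32.0% of all promoters. Matches overlap in HES1, where the last HES site shares 3 bases with the second string.

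HES4 was about doubled and HES1 was not called. HES4 (ENSG00000188290, minus strand of chromosome 1 from 934342 to 935552) had 8.54, 7.13 and 7.39 CPM with vehicle and 17.8, 14.3 and 14.2 CPM with TGFβ. The groups were far apart. HES4 rose 2.01-fold, a log2 fold change of 1.00 (SE 0.13, FDR 0.00193), and its call held whichever culture was left out (log2 fold change 0.88 to 1.08).

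HES1 (ENSG00000114315, plus strand of chromosome 3 from 193853934 to 193856521), the most studied Notch target and a repressor of its own promoter, had 12.2, 14.6 and 14.4 CPM with vehicle and 15.4, 18.2 and 15.4 CPM with TGFβ. The groups did not overlap, but the lowest TGFβ culture lay just above the highest vehicle culture. The log2 fold change was 0.25 (SE 0.11, unadjusted P = 0.0476 and FDR 0.355 in edgeR), and the FDR was 0.0599 with the culture number as a block. The RPKM ratio of HES4 to HES1 was 1.29, 0.902 and 0.944 in the vehicle cultures and 2.13, 1.45 and 1.69 in the TGFβ cultures. These groups did not overlap (exact two-sided permutation P = 0.1). The ratio was not planned before the values were seen. It restates the larger rise of HES4 and is no separate evidence.

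HEY1 (ENSG00000164683, minus strand of chromosome 8 from 80676245 to 80680098), a repressor of the HEY family, had 1.61, 2.59 and 1.80 CPM with vehicle and 3.88, 6.06 and 3.46 CPM with TGFβ. Culture 2 was the highest of both groups, and the groups did not overlap. HEY1 rose 2.23-fold, a log2 fold change of 1.16 (SE 0.26, FDR 0.0337). It was no longer called without vehicle replicate 1 or 3, at FDRs of 0.119 and 0.160, or without TGFβ replicate 2, at 0.132, and with the culture number as a block the FDR was 0.000170.

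The rest of the pathway was followed with a list of other Notch genes, of which 61 were tested. Of these, 6 were higher, 2 were lower and 53 were not called. Over all tested genes, 3.11% were called as higher and 1.01% as lower. The median log2 fold change of the pathway list was 0.06, beside -0.01 over all tested genes. With the culture number as a block, 8 genes of the list were higher and 3 were lower. That fit called 11.8% of all tested genes.

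Among other ligands, DLL4, a Delta ligand best known from blood vessels, had 0.510, 0.676 and 0.374 CPM with vehicle and 2.44, 4.80 and 2.85 CPM with TGFβ. Each TGFβ culture exceeded 3 times the highest vehicle culture. DLL4 rose 6.38-fold (log2 fold change 2.67, SE 0.31, FDR 0.00118), more than any of the 10 genes above. It held 0.494% ± 0.101 (SD, n = 3) of the summed RPKM of JAG1, JAG2, DLL1, DLL3 and DLL4 with vehicle and 3.50% ± 0.461 (SD, n = 3) with TGFβ. JAG1 held 98.4% ± 0.0364 and 95.1% ± 0.560 of the same sums. The ligand shares restate the rise of DLL4 and are no separate evidence. DLK1, an atypical ligand and the one with the highest CPM of those listed, had a log2 fold change of 0.19 (SE 0.14, FDR 0.672, and 0.0220 with the block).

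Among the proteases that mature and cut the receptors, FURIN rose 2.15-fold (log2 fold change 1.10, SE 0.12, FDR 0.000692), from 195 ± 26.0 CPM to 420 ± 55.0 CPM (SD, n = 3). FURIN also cuts many other proproteins, the TGFβ precursor among them. The other 8 tested genes of this group, which include the ADAM10 sheddase and the γ-secretase subunits, were not called.

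In the nucleus, none of the 9 genes of the activating complex with RBPJ, the Mastermind proteins and EP300 was called. EP300, which had the highest CPM among them, had a log2 fold change of 0.08 (SE 0.08, FDR 0.796). NCOR1, a scaffold of repressing complexes, had a log2 fold change of 0.04 (SE 0.08, FDR 0.901).

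Among other targets, 7 genes were tested. NRARP, a feedback inhibitor that binds the Notch complex, rose from 1.60 ± 0.354 CPM to 3.29 ± 0.531 CPM (SD, n = 3), a log2 fold change of 1.04 (SE 0.21, FDR 0.0212). Its call was lost without vehicle replicate 2 (FDR 0.107), vehicle replicate 3 (FDR 0.112) or TGFβ replicate 1 (FDR 0.0700). In the fit with the block and all cultures, the FDR of NRARP was 0.000687. The cyclin gene CCND1 rose (log2 fold change 0.68, SE 0.07, FDR 0.000689). MYC fell (log2 fold change -1.08, SE 0.08, FDR 9.92e-05), as did the bile duct factor SOX9 (log2 fold change -0.48, SE 0.09, FDR 0.0108). The call on SOX9 was lost without vehicle replicate 3 (FDR 0.0631), and with the block and all cultures its FDR was 0.000276. CCND1, MYC and SOX9 respond to many other pathways. HES5, named here after its values were seen, had too few reads for the test, 2, 0 and 0 with vehicle and 10, 9 and 5 with TGFβ. Scaled to library size, these reads stood at a ratio of 11.2 (exact 95% interval 2.77 to 97.4). The interval pools the reads of each group and covers counting error alone, not the spread between cultures, so it is no test of a rise.

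Of 7 other genes of receptor glycosylation, none was called without the block, and 1 was called as lower with it. POFUT1, which adds the fucose that LFNG extends, had a log2 fold change of -0.04 (SE 0.07, FDR 0.878). Of 12 tested genes of trafficking and turnover, DTX4, a Deltex ubiquitin ligase, rose from 33.4 ± 6.39 CPM to 58.6 ± 9.01 CPM (SD, n = 3), a log2 fold change of 0.81 (SE 0.14, FDR 0.0114). Its call was lost without vehicle replicate 2 (FDR 0.0808) or vehicle replicate 3 (FDR 0.0662). In the fit with the block and all cultures, the FDR of DTX4 was 2.38e-06. ITCH, which had the highest CPM of this group, had a log2 fold change of 0.14 (SE 0.09, FDR 0.590).

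**Figure D4:**
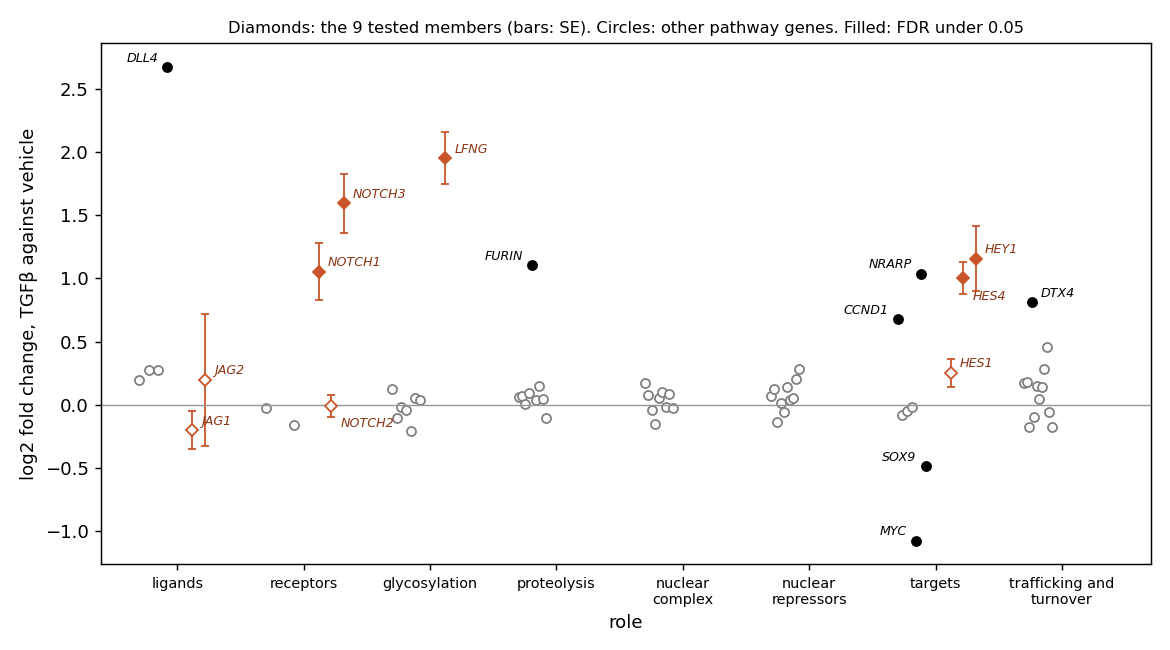
Log2 fold change of TGFβ against vehicle by role in the pathway, with orange diamonds and SE bars for the 9 tested Notch genes and circles for other pathway genes, filled where the FDR was under 0.05. Most circles lie close to 0, and the filled symbols stand out as DLL4, LFNG, NOTCH3, HEY1, FURIN, NOTCH1, NRARP, HES4, DTX4 and CCND1 above it and MYC and SOX9 below it.

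LFNG had the smallest FDR of the 10 genes, so the genes with a profile most like it were looked up among 15049 genes with at least 1 CPM in every culture. The highest Pearson correlations of log2 CPM over the 6 cultures were those of the kinase gene PIM1 (0.997), TNKS2 (0.997) and the transcription factor gene GATA2 (0.996). The 6 points of each share the same libraries and the treatment, so these values are a description. The changes of these genes were smaller than that of LFNG, with log2 fold changes of 0.69 (SE 0.09, FDR 0.00248) for PIM1, 0.35 (SE 0.07, FDR 0.0169) for TNKS2 and 0.56 (SE 0.09, FDR 0.00862) for GATA2. The call on PIM1 held whichever culture was left out. TNKS2 was not called without vehicle replicate 2 or 3 (FDR 0.0552 and 0.109) or TGFβ replicate 1 or 2 (FDR 0.0792 and 0.0911). GATA2 was not called without vehicle replicate 3 (FDR 0.0520) or TGFβ replicate 2 (FDR 0.0508). In the fit with the block and all cultures, the FDRs were 0.000582 for TNKS2 and 0.000155 for GATA2.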

How the data were processed

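RNA from HepG2 cells with vehicle (3 cultures) or TGFβ (3 cultures) was sequenced by the authors as paired reads, aligned to hg19 and counted per gene with MAPRseq. The processing notes of the submitters also name TopHat2 2.0.6 and HTSeq. The authors deposited the raw read count per gene and culture, without normalization, and beside it the RPKM, which the authors scaled by gene model length and library total. For the annotation release, the strand setting and reads on overlapping genes, no source used here gives the choice. Groups and culture numbers came from the labels.

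Counts were normalized by TMM, filtered with filterByExpr and tested with the robust quasi-likelihood F test of edgeR 4.0.16 (limma 3.58.1, R 4.3.3) without a block, with Benjamini-Hochberg adjustment over 22747 genes. SE is that implied by the F statistic. The steps were tested on simulated data. RPKM values were used for levels between genes and for shares. Permutation P-values used log2 CPM with a prior count of 2 or the shares themselves, and intervals are exact binomial ones. The permutations took the cultures as unpaired, although culture numbers were found to pair them. Replicates of a group differed by more than counting noise (mean chi-square per gene between 19.2 and 41.3). The labels do not say how the cultures were split, so P-values measure the spread between these samples.

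Deviations from the group means correlated at 0.366, 0.227 and 0.316 for cultures with numbers 1, 2 and 3 in both groups. For different numbers the correlation was at most 0.0101. The cultures were taken as paired by number from these values. The members and the gene lists were chosen with earlier results of these data known. Named genes are the 10 members, called genes of the pathway list, the gene with the highest CPM of each role, rows that overlap a member and the 3 genes most like LFNG. NEURL, an older name on the list, and PECAM1 were not analysed here, and 1 called gene of the pathway list is not reported here. Alternatives were limma-voom, DESeq2 1.42.0, its size factors within edgeR, scaling by total counts, either no filter or a minimum of 10 reads in every culture, the replicate block, and each culture left out. A fit on cultures 1 and 2 only was chosen after seeing the data. Promoter sequences came from RefSeq, and motif searches covered the 250 bases before each start.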

Additional observations from a re-analysis of the deposited data

How the results depend on the processing

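LFNG, NOTCH3 and HES4 were called in every fit, and HES1 in none. Single cultures left out moved the count of called genes from 937 to between 485 and 998 (518 without vehicle replicate 2, 485 without vehicle replicate 3, 561 without TGFβ replicate 2), that of the 10 Notch genes to between 3 and 5 (3 without vehicle replicate 1 or 3) and that of the other pathway genes from 8 to between 5 and 8 (5 without vehicle replicate 3). The log2 fold change then ranged from 0.77 to 1.18 for NOTCH1 and from 0.86 to 1.39 for HEY1, with the call lost in the fits named above, from -0.41 to -0.09 for JAG1, from -0.30 to 0.54 for JAG2 and from -0.0708 to 0.0665 for NOTCH2. With the replicate block 2690 genes were called, JAG1 passed at -0.21, and no call on another of the 10 genes changed. DESeq2 called 1420 genes. On cultures 1 and 2 only, chosen after seeing the data, 399 genes, 3 of the Notch genes and 5 of the other pathway genes were called, at 1.14 for NOTCH1 and 1.24 for HEY1, neither of them called, and NOTCH2 was at 0.0550. The causes were not tested. Scaling choices changed no call on the 10 genes. Depth limited JAG2, DLL1 and HES5, and 3 cultures a group set the smallest exact unpaired P at 0.1.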
